A study of Homo sapiens with 3 samples.

Results

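The 8 genes described here encode the machinery by which a cell senses its sterol content and moves cholesterol that enters through lipoprotein uptake. They are SREBF1, SREBF2, SCAP, INSIG1, INSIG2, STARD4, NPC1 and NPC2, and were taken by name as every probe that carries 1 of these symbols on the array, which gave 10 probes among 41000 (8 of 17078 genes with a RefSeq mRNA accession). SREBF1 and INSIG2 each had 2 probes and the other 6 genes had 1. Messenger RNA was measured in 1205Lu, an established human metastatic melanoma line that was derived from WM793 through a lung metastasis in a xenografted mouse. The OM population (original monolayer) had grown for 14 days in standard medium, RPMI-1640 with fetal calf serum. The MB population (melanoma bodies, adherent 3D clusters) had grown for 14 days in human embryonic stem cell (hESC) medium, DMEM F-12 with a serum replacement in place of serum. The NM population had first formed bodies over 14 days in hESC medium and was then returned to standard medium for 10 days, and bodies that remained were removed before RNA was prepared. Medium, serum source and growth form thus changed together between MB and both monolayers and cannot be told apart. All 3 populations come from 1 cell line, and no treatment or genetic change was applied.

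Each population was hybridized to 1 Agilent array in 1 color (Cy3), and the 3 arrays lie on 1 slide. There was no replicate array, so no difference below has a replicate check or a p-value. Signals are in arbitrary units (a.u.) after division by the average signal of 3 housekeeping genes (GAPDH, ACTB and HSP90AA1) on the same array, brought to the level of the OM array. The division changed the MB signals little and the NM signals more, since that mean was 0.978 and 0.877 times the OM mean. Without it, the median log2 ratio of NM over OM over all genes was -0.08 in place of 0.11. A gene was called higher or lower at 2-fold or more when its brighter array exceeded 100 a.u. before scaling. The number of probes well above background was between 26516 and 29126 per array. Of 9 melanocyte lineage markers, SOX10, MITF, PMEL, DCT, S100B and S100A1 were well above background on all 3 arrays, whereas the pigment enzymes TYR and TYRP1 were at background on all 3. DCT was low, at 64.3 to 73.0 a.u., a level like that of the leukocyte marker CD14 (61.6 to 70.3 a.u.). S100A1 was called higher in MB than in OM (2.21-fold) and than in NM (3.21-fold), and S100B than in NM (2.95-fold). No other lineage marker was called in these comparisons. Of the 20 fibroblast, epithelial, endothelial and leukocyte markers, 6 were well above background on all 3 arrays, and COL1A1, COL3A1, EPCAM, CDH1, CDH5 and PTPRC were at background on each. PDGFRB, KRT14, VWF, CD3E and CD14 were among the 6. Some of these markers differed between the arrays. PDGFRB gave 1246 a.u. in OM, 2375 a.u. in MB and 3120 a.u. in NM. VWF was 2.15-fold higher in MB than in OM and 3.66-fold higher than in NM, and KRT14 was 2.85-fold higher in MB than in NM. PECAM1 was above background in MB alone (89.7 a.u.) and TEK in NM alone (231 a.u.). The part of these markers in the results below was not tested.

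Sterol sensing works as a feedback loop at the membrane of the endoplasmic reticulum. SREBF2 and SREBF1 encode membrane-bound precursors of the transcription factors SREBP-2, which chiefly drives cholesterol synthesis and uptake genes, and SREBP-1, which chiefly drives fatty acid genes. SCAP escorts the precursors to the Golgi, where proteases release the active factor, and the INSIG proteins hold SCAP back when sterols are plentiful. SREBF2 and INSIG1 are themselves known targets of SREBPs, so their transcripts are often read as signs of the loop's activity. Cholesterol that arrives in lipoproteins is handled further along, where NPC2 and NPC1 pass it out of the late endosome and lysosome and STARD4 carries it between membranes in the cytosol.

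The DNA element that active SREBPs bind, the sterol regulatory element, can be looked for in the promoters of these genes. The letters TCACNCCAC were searched on both strands in RefSeq windows (GRCh38.p14) from 250 bases before to 50 bases after the transcription start, and 396 of 35116 windows (1.13%) held a match. Among the 8 members a match was present in SREBF2 alone, on the plus strand from 133 to 125 bases before the start. The CCAAT box, bound by NF-Y, which is known to act beside SREBPs, was searched as CCAAT on both strands and was present in 34.6% of windows. INSIG2 and NPC2 each had 2 windows, which were both searched. The CCAAT box was found in SREBF2, INSIG1, STARD4 and NPC2 among the members, 2 times each in STARD4 and NPC2. The windows of the 3 members that were higher in MB than in OM are shown for that reason, 5′ to 3′ on the gene's strand, with matches to the sterol regulatory element and the CCAAT box (or ATTGG, its complement) in capitals. They lie at chr22:41832855-41833154 (plus strand), chr7:155297628-155297927 (plus strand) and chr5:111512486-111512785 (minus strand). In SREBF2 the first run of capitals is the sterol regulatory element and the second is the CCAAT box.
SREBF2: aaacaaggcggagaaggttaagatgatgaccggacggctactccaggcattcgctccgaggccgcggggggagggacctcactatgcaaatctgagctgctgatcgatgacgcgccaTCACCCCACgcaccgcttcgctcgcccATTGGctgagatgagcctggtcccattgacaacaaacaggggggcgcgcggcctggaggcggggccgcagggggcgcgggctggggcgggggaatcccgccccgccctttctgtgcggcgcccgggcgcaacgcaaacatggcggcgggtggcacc
INSIG1: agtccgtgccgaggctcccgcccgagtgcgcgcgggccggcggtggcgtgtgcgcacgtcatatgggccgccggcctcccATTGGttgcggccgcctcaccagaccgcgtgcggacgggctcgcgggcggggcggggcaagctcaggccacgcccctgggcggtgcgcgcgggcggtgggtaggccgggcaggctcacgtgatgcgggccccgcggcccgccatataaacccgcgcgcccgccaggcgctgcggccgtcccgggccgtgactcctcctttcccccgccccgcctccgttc
STARD4: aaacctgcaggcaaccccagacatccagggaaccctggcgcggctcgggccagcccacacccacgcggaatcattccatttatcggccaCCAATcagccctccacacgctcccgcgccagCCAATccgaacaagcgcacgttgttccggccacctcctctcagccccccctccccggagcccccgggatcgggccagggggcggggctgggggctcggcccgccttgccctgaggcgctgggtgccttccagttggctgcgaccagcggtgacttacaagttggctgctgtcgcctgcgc
The INSIG1 window also held CACGTG, the form of the E-box (CANNTG) that SREBPs can bind, from 55 to 50 bases before the start, and SCAP held it from 58 to 53 bases before its start. E-boxes of any form were present in 68.7% of all windows and Sp1 sites (GGGCGG on either strand) in 45.0%, and all 8 members held at least 1 Sp1 site. The share of windows with CACGTG itself was not counted. A match describes letters in the window and does not show a bound site.

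Against the original monolayer, the melanoma bodies had more transcript of SREBF2, INSIG1 and STARD4 and less of SREBF1 and NPC2, while SCAP, INSIG2 and NPC1 lay within 2-fold. Of the 8 members, 3 were thus called higher and 2 lower in MB than in OM, where 6.62% of 11810 genes measured were called higher and 3.71% lower. No member reached 5-fold in any comparison. The median log2 ratio of the 8 members was 0.36, against 0.15 over all genes, but the members spread widely about it, with a median distance from 0 of 1.08 against 0.34 over all genes. All 10 probes were well above background on all 3 arrays and none was saturated. Each member probe is printed as 1 spot, and the scanner software's own error of about 10% per signal gives an error of 0.20 on each log2 ratio, larger than the SD of 0.034 between replicate spots of other probes above 1000 a.u. in MB over OM. Neither error includes the difference between separate cultures, which was not measured.

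**Figure D1:**
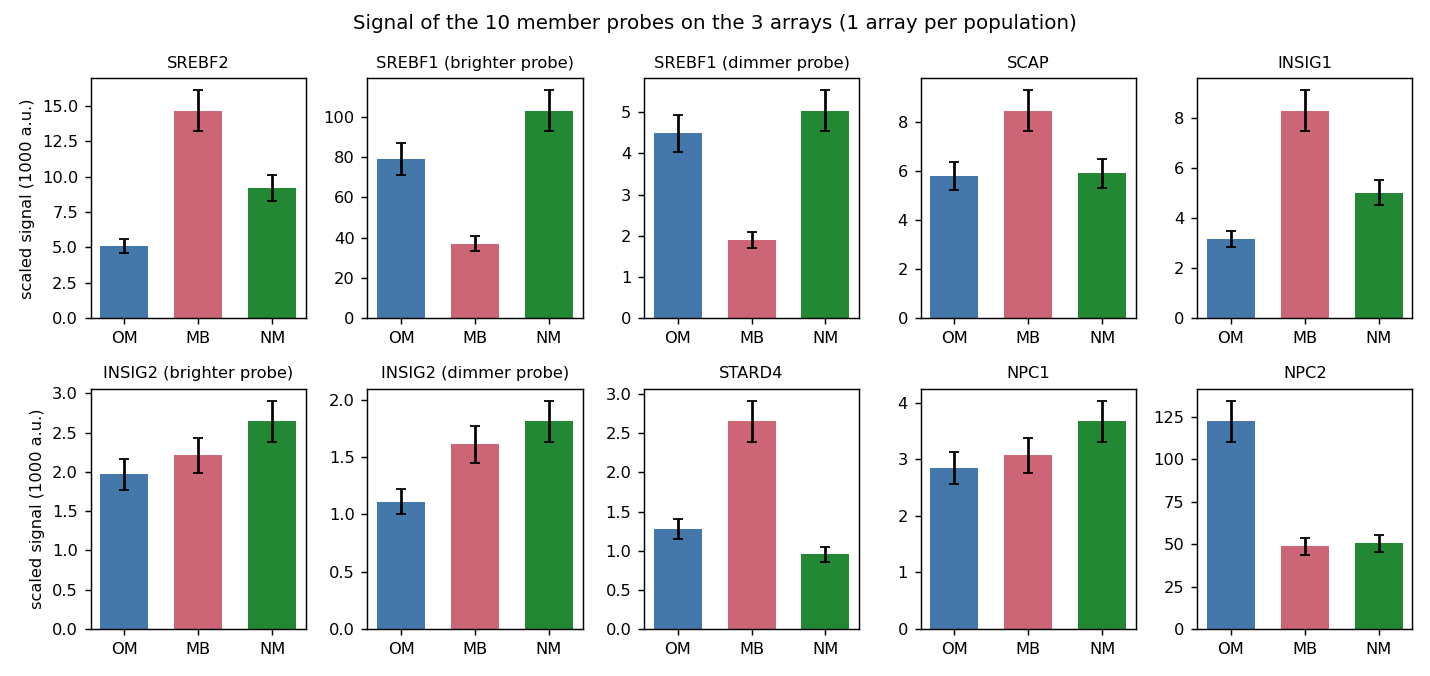
Scaled signal (in 1000 a.u., linear axis from 0, each panel with its own scale) of the 10 member probes in OM, MB and NM, with 1 array per population, where error bars are the scanner software's error of about 10%. SREBF2, INSIG1 and STARD4 were highest in MB, both SREBF1 probes were lowest in MB, and NPC2 was highest in OM.

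The 2 genes for the SREBP precursors moved apart. SREBF2 gave 5096 a.u. in OM, 14666 a.u. in MB and 9176 a.u. in NM. Its signal was lowest in OM, highest in MB and between them in NM. The MB signal was 2.88-fold that of OM, a log2 ratio of 1.52, and 304 of 11810 genes had a larger ratio. MB over NM was 1.60-fold and NM over OM was 1.80-fold, both under the 2-fold rule, so NM stood about midway between the other populations on the log2 scale (0.68 from MB and 0.85 from OM).

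SREBF1 showed the opposite order in MB. Its brighter probe (chr17:17656144-17656203 in hg17, minus strand) gave 79032 a.u. in OM, 37004 a.u. in MB and 102928 a.u. in NM. MB was lowest, 2.14-fold below OM and 2.78-fold below NM, with log2 ratios of -1.09 and -1.48. NM was 1.30-fold above OM, within the 2-fold rule. The dimmer SREBF1 probe, from another part of the transcript, is shown because it repeats the measurement independently of the first probe's sequence. It is given as the deposited files list it and lies at chr17:17656672-17656731 in hg17, and all 3 reading frames across it are free of stop codons.
SREBF1: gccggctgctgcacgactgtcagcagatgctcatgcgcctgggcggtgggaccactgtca
That probe gave 4485 a.u. in OM, 1892 a.u. in MB and 5038 a.u. in NM, again lowest in MB. Its MB signal was 2.37-fold below OM and 2.66-fold below NM. The log2 ratios of both probes differed by 0.15 for MB over OM and by 0.06 for MB over NM, where the median range among 3617 genes with several probes was 0.17 and 0.25. Both probes are annotated to the same 2 RefSeq transcripts, so the isoforms that start from different SREBF1 promoters were not separated. Within the arrays, where the scaling cancels, SREBF2 relative to SREBF1 was 6.15-fold higher in MB than in OM, 4.45-fold higher in MB than in NM and 1.38-fold higher in NM than in OM.

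The escort SCAP lay within 2-fold in all 3 comparisons. Its probe gave 5797 a.u. in OM, 8476 a.u. in MB and 5924 a.u. in NM. The MB signal exceeded that of OM 1.46-fold and that of NM 1.43-fold, neither of which met the rule, and both monolayers differed by 0.03 on the log2 scale. That last value is smaller than the scanner error and changed sign in 4 of 10 alternative settings.

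Of the 2 INSIG genes, INSIG1 followed SREBF2 and INSIG2 did not. INSIG1, the sterol-regulated retention factor, gave 3182 a.u. in OM, 8303 a.u. in MB and 5017 a.u. in NM. The order OM, NM, MB was the same as for SREBF2. MB was 2.61-fold above OM (log2 ratio 1.38) and 1.65-fold above NM, and NM was 1.58-fold above OM. The log2 ratios of INSIG1 and SREBF2 differed by 0.14 for MB over OM and by -0.05 for SREBF2 minus INSIG1 in MB over NM, both under the scanner error.

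INSIG2, the retention factor that is not known as a strong SREBP target, was lowest in OM and highest in NM on both probes. The brighter probe gave 1968 a.u. in OM, 2208 a.u. in MB and 2642 a.u. in NM. The dimmer probe gave 1111 a.u. in OM, 1612 a.u. in MB and 1813 a.u. in NM. None of these ratios met the rule, with MB over OM at 0.17 and 0.54 on the log2 scale for the brighter and dimmer probe and MB over NM at -0.26 and -0.17. The brighter probe is shown because its 60 bases cover 1151 bases of the genome (chr2:118580941-118582091 in hg17, plus strand), so that it crosses an intron and reads spliced transcript.
INSIG2: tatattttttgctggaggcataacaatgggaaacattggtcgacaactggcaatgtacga
Within the arrays, INSIG1 relative to INSIG2 was 2.33-fold higher in MB than in OM, 1.98-fold higher in MB than in NM and 1.17-fold higher in NM than in OM.

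STARD4, a soluble sterol carrier and known SREBP-2 target, was the member that was higher in MB than in both monolayers by the 2-fold rule. It gave 1276 a.u. in OM, 2654 a.u. in MB and 955 a.u. in NM. MB was 2.08-fold above OM (log2 ratio 1.06) and 2.78-fold above NM (1.47). Unlike for SREBF2 and INSIG1, the NM signal was below that of OM, by 0.42 on the log2 scale. The MB over OM value is close to the limit and fell under 2-fold in 3 of 10 alternative settings, as low as 1.72-fold with spike-in scaling, whereas MB over NM stayed at 2.53-fold or more in all 10. Of the 8 members, STARD4 alone was called higher and SREBF1 alone lower in MB than in NM, where 11.1% of 11836 genes were called higher and 9.2% lower.

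The endosomal pair NPC1 and NPC2 did not move together. NPC2, the soluble lysosomal protein that binds cholesterol first, gave 122392 a.u. in OM, 48713 a.u. in MB and 50407 a.u. in NM. Only OM was high, and both ratios to OM rest on that single spot. MB was 2.51-fold and NM 2.43-fold below OM, with log2 ratios of -1.33 and -1.28, and MB and NM differed by -0.05, less than the scanner error. Of the 8 members, NPC2 alone was called in NM over OM, where 3.03% of 11697 genes were called lower and 4.63% higher. In that comparison 191 genes had a smaller ratio than NPC2.

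NPC1, the membrane protein that takes cholesterol from NPC2 and carries a sterol-sensing domain like that of SCAP, gave 2846 a.u. in OM, 3069 a.u. in MB and 3673 a.u. in NM. Its log2 ratios were 0.11 for MB over OM, -0.26 for MB over NM and 0.37 for NM over OM. The first is under the scanner error and changed sign in 3 of 10 alternative settings, as did that of the brighter INSIG2 probe. NPC1 relative to NPC2 was 2.71-fold higher in MB than in OM and 3.13-fold higher in NM than in OM.

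**Figure D2:**
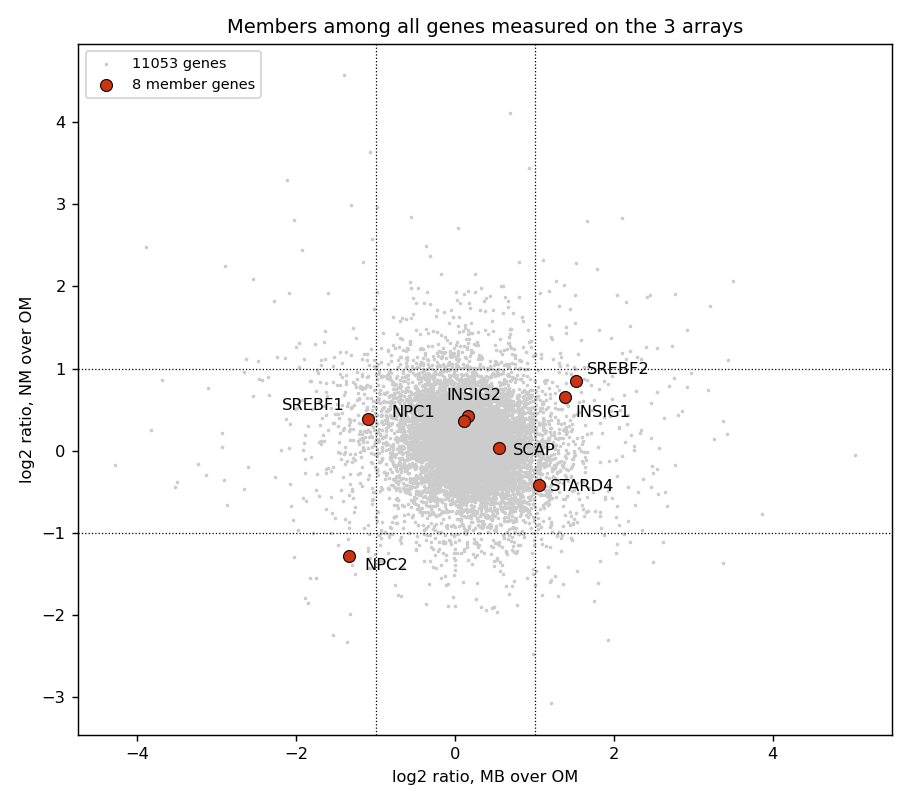
Log2 ratio of scaled signal in NM over OM (vertical axis) against MB over OM (horizontal axis) for 11053 genes above background and above 100 a.u. on all 3 arrays (gray) and the 8 members (red, labeled), with dotted lines at 2-fold; both ratios share the OM array. SREBF2 and INSIG1 lie at the upper right at 1.52 and 1.38 in MB over OM, STARD4 at 1.06 with NM below OM, SREBF1 at -1.09, and NPC2 at the lower left at -1.33 and -1.28.

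The genes whose pattern over the 3 arrays was nearest to each of the 5 called members were found as the distance between the pairs of log2 ratios MB over OM and NM over OM, among 11053 genes. With 3 arrays such likeness rests on 2 ratios a gene, which share the OM signal and so are not independent. The gene nearest to INSIG1 was SQLE, squalene epoxidase of the sterol synthesis pathway, at a distance of 0.05, with 5847 a.u. in OM, 15757 a.u. in MB and 9122 a.u. in NM. NR4A3, FAP and NID2 were also among its 5 nearest genes. SREBF2 had RFTN2, QPCT, ARID5A, GEM and MAP3K7CL nearest, with 17 genes within 0.25. Nearest to SREBF1 were ENPP1, WNT5B, SPACA9, ZNF773 and PNPLA4, with 71 genes within 0.25. STARD4, whose position is the most crowded of the 5, had 161 genes within 0.25, the nearest of which were SNTB1, STAG1, KCNN3, CEMIP2 and BRICD5. NPC2 had 7, and its nearest were the histone genes H2BC17, H2BC3 and H2BC9 followed by LIMCH1 and SERPIND1. H2BC17 gave 4061 a.u. in OM, 1640 a.u. in MB and 1662 a.u. in NM. The coding sequences of H2B genes are nearly identical, so the signal of 1 such probe may include its relatives.

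The other parts of the SREBP machinery varied less than SREBF2 and INSIG1. Of 11 genes measured on the array for processing and turnover of the SREBPs, 10 lay within 2-fold in MB over OM and none was called lower, with a median log2 ratio of 0.43. Over all genes, 10.3% were 2-fold or more apart in MB over OM (6.62% higher and 3.71% lower), so most lay within 2-fold as well. The same shares stand beside the MB over OM counts of the lists below. SEC24A and SEC23A, coat proteins of the vesicles that carry SCAP to the Golgi, were at -0.43 and -0.11 on the log2 scale. MBTPS1 and MBTPS2, the proteases that release the active factors, were at 0.44 and 0.01.

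The enzymes of sterol synthesis, the classical targets of SREBP-2, were higher in MB than in both monolayers. Of 19 genes, 16 were called higher in MB than in OM and none lower, with a median log2 ratio of 1.43. The number called higher was 12 with spike-in scaling, 15 with the mean of all probes of a gene and 16 in the other alternatives. Against NM, 13 of 19 were called higher (12 to 15 over the alternatives) and none lower, with a median of 1.34. In that comparison 11.1% of 11836 genes were called higher and 9.2% lower. Between the monolayers none of the 19 was called, and the median of NM over OM was 0.16, against 0.11 over all genes. There 4.63% of 11697 genes were called higher and 3.03% lower, so the lack of calls does not set these enzymes apart. MSMO1, the sterol C4-methyl oxidase, gave 475 a.u. in OM, 3599 a.u. in MB and 812 a.u. in NM, and HMGCS1, which makes the precursor of mevalonate, gave 3982 a.u., 27812 a.u. and 5380 a.u. in the same order. MB was 7.57-fold and 6.98-fold above OM for this pair. PMVK and NSDHL had the lowest ratios of the list, 1.19-fold and 1.75-fold. MSMO1 had the highest ratio of NM over OM among the 19, at 0.77 on the log2 scale, where SREBF2 had 0.85 and INSIG1 0.66. Of 15 of these genes with a RefSeq window, 0 held the letters searched for the sterol regulatory element. Only 1.39% of all 27305 genes with a window held them, so 0 of 15 does not set these enzymes apart. The search also misses elements with other letters or outside the window.

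Of 13 fatty acid genes known to respond to SREBP-1, 2 were called higher in MB than in OM and 1 lower, with a median log2 ratio of 0.60, and the number called higher was 1 in 8 of 13 alternative settings. ACSS2, which makes acetyl-CoA from acetate, was 2.77-fold higher, at 6630 a.u. in OM, 18334 a.u. in MB and 3132 a.u. in NM. LPIN1, a phosphatidate phosphatase, was at 2.03-fold. MID1IP1, which promotes the polymerization of acetyl-CoA carboxylase, was 2.32-fold lower, with 2093 a.u. in OM, 902 a.u. in MB and 3265 a.u. in NM, the order seen for SREBF1. It was also the 1 gene of this list, of 11 with a RefSeq window, in whose window the letters of the sterol regulatory element were found. Over all genes with a window, 379 of 27305 (1.39%) held these letters. Whether this match bears on the MID1IP1 signal was not tested. ACSL3, which activates long fatty acids, was 1.45-fold below OM in MB. Against NM, 3 of the 13 were called higher in MB and 1 lower, where 11.1% of 11836 genes were called higher and 9.2% lower.

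Relatives of the members that share a domain with them were compared as well. The sterol-sensing domain of SCAP and NPC1 is also found in the Hedgehog receptors and their kin. Of 6 such genes measured, 3 were called higher in MB than in OM and none lower, and the number called higher was 2 in 8 of 13 alternative settings. DISP1, which releases Hedgehog ligands, was nearest to the limit at 2.02-fold. PTCHD1 gave 610 a.u. in OM, 5659 a.u. in MB and 2076 a.u. in NM, 9.27-fold higher in MB than in OM. PTCH1, the Hedgehog receptor, gave 74.4 a.u. in OM, 484 a.u. in MB and 38.5 a.u. in NM, 6.50-fold higher in MB than in OM and 12.6-fold higher than in NM. Both ratios are imprecise, since the OM and NM signals of PTCH1 were low. The lowest signal well above background on the NM array was 29.1 a.u. before scaling. NPC1L1, the intestinal cholesterol transporter, had no more than 55.7 a.u. on any array, and DISP2, a relative of DISP1, was 1.11-fold above OM in MB.

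Genes that handle cholesterol in endosomes and lysosomes, like NPC1 and NPC2, mostly lay within 2-fold, as did most genes on the array. Of 15 measured, 1 was called higher and 1 lower in MB than in OM, where 6.62% of all genes were called higher and 3.71% lower. The median log2 ratio of the 15 was 0.15. TMEM97, a sterol-regulated protein that binds NPC1, was 3.16-fold higher, at 2174 a.u. in OM, 6876 a.u. in MB and 2498 a.u. in NM. GRAMD1C, a sterol carrier at membrane contacts, was 6.08-fold lower, at 3035 a.u. in OM, 499 a.u. in MB and 2643 a.u. in NM. LIPA, the lysosomal acid lipase that frees cholesterol from lipoprotein esters, was at 1.79-fold, and ANXA6 was 1.44-fold below OM. Most of the list did not share the 2.51-fold lower signal of NPC2 in MB, and neither did most genes on the array.

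Among 12 receptors and adaptors of lipoprotein uptake related to the LDL route, 1 was called higher and 3 lower in MB than in OM, with a median log2 ratio of 0.15. SORT1, a sorting receptor, was 2.15-fold higher (under 2-fold with 75th percentile, quantile and spike-in scaling), and SORL1, a relative of it, was at 1.92-fold. VLDLR, the very low density lipoprotein receptor, gave 657 a.u. in OM, 194 a.u. in MB and 1612 a.u. in NM, 3.39-fold lower in MB than in OM and 8.31-fold lower than in NM. MYLIP, a ubiquitin ligase that directs lipoprotein receptors to degradation and is induced by the oxysterol receptors LXR, gave 1372 a.u. in OM, 333 a.u. in MB and 764 a.u. in NM, 4.11-fold lower in MB than in OM. SREBF1 is likewise a known LXR target. Both genes were called lower in MB than in OM and than in NM. The SREBF1 signal was highest in NM and that of MYLIP in OM, and a part of LXR in either was not tested. DAB2, an adaptor for receptor endocytosis, was 2.51-fold lower in MB than in OM.

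**Figure D3:**
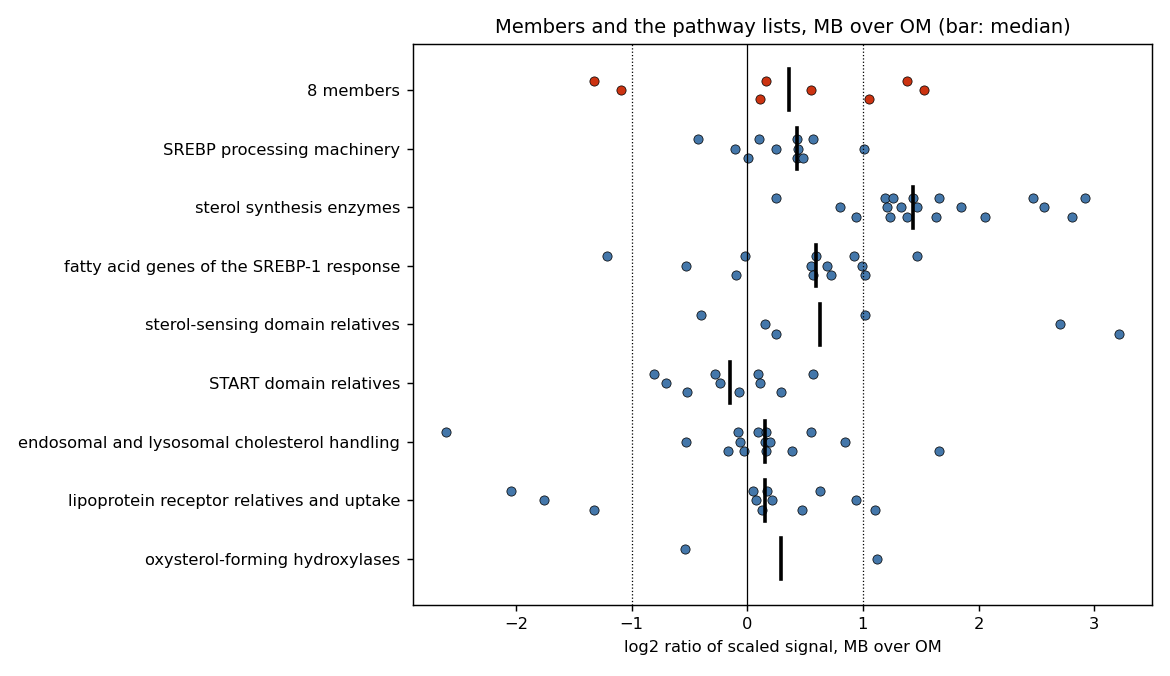
Log2 ratio of scaled signal in MB over OM for the 8 members (red) and for each measured gene of the pathway lists (blue), where each point is a gene, vertical bars are medians and dotted lines mark 2-fold. The members spread from -1.33 to 1.52 about a median of 0.36, while the sterol synthesis enzymes all lie above 0 with a median of 1.43.

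The calls of the members were little affected by how the arrays were scaled or the background was corrected. Over 10 such settings, SREBF2 in MB over OM ranged from 2.37-fold to 2.88-fold, INSIG1 from 2.15-fold to 2.61-fold, the brighter SREBF1 probe from 2.00-fold to 2.59-fold lower and NPC2 from 2.30-fold to 3.04-fold lower. These 4 kept their call in all 10, and STARD4 kept it in 7. The lowest of the ratios for SREBF2 and INSIG1 came from spike-in scaling, which moved the median log2 ratio of all genes in MB over OM by -0.28, from 0.15 to -0.13. A log2 ratio of MB over OM between 0 and 0.28 in the reported scaling, such as that of PMVK, MBTPS2 or DISP2, therefore changes sign with it. Relative to the median of all genes in the reported scaling, SREBF2 was 2.59-fold, INSIG1 2.35-fold and STARD4 1.87-fold higher, and SREBF1 2.37-fold and NPC2 2.79-fold lower.

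**Figure D4:**
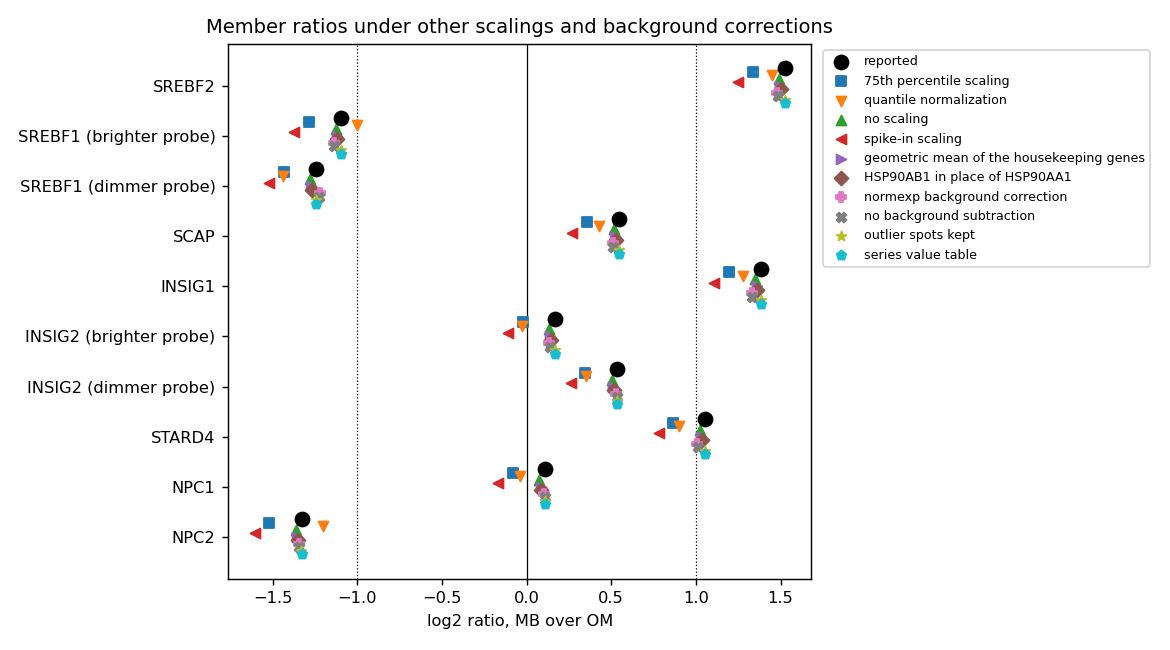
Log2 ratio of MB over OM for each member probe as reported (black) and under 10 other scalings, background corrections or sources of the values (colored), with dotted lines at 2-fold. SREBF2, INSIG1, both SREBF1 probes and NPC2 stay beyond 2-fold throughout, STARD4 crosses the line in 3 settings, and NPC1 and the brighter INSIG2 probe cross 0.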

How the data were processed

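Total RNA was amplified, labeled with Cy3 and hybridized to 3 Agilent 4 × 44K arrays on 1 slide, 1 per population, so neither a replicate nor a test across samples was possible, and precision is set by the number of arrays. The authors deposited the intensity of each spot as Feature Extraction (9.5.3.1 per the file headers, 9.5 per the labels) gave it, background-subtracted, not scaled between arrays and on a linear scale. The deposited series value table holds the same values (130128 of 130128 within 0.1%) and was an alternative.

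Control and outlier spots were left out, spots of a probe were averaged, and arrays were scaled to the mean of GAPDH, ACTB and HSP90AA1. The methods name HSP90 without the gene, and HSP90AA1 has a probe in 10 spots. A gene is its probe with the highest mean signal, and a call needs at least 2-fold and more than 100 a.u. before scaling on the brighter of both arrays. A list gene counts as measured when well above background on either array. Ratios have no pseudocount. Probe positions are those of the files (hg17), for which no gene annotation was used. Named genes are all members, the 2 highest and 2 lowest MB over OM ratios of each list among genes above background on all 3 arrays, and the 5 nearest genes of each called member; others (such as MBTPS1, MBTPS2, DISP1 and DAB2) were chosen after their values were seen. Members, lists and rules were chosen with earlier results of these data known. Symbols were updated by accession. Some genes that these rules select are not reported here.

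In all, 13 alternatives were tried. The software was Python 3.11.15, pandas 2.3.3, numpy 2.4.6, matplotlib 3.10.9 and, for normexp (offset 50), limma 3.58.1 under R 4.3.3.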

Additional observations from a re-analysis of the deposited data

How the results depend on the processing

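No paired analysis was possible because there was 1 array per population. The alternatives were spike-in scaling (with 8 probes), 75th percentile scaling, no scaling, quantile normalization, HSP90AB1 in place of HSP90AA1, a geometric mean over the housekeeping genes, normexp, no background subtraction, both arrays well above background, no minimum signal, outlier spots kept, the mean of all probes of a gene, and the series value table. The number of members called was 5 for MB over OM in 10 of 13 and 4 in the other 3 (75th percentile, quantile and spike-in), where STARD4 was lost. It stayed at 2 for MB over NM and 1 for NM over OM in all 13. The series value table, no minimum signal and both arrays well above background could not change a member call. The first holds the same values, and all 10 member probes were well above background and above 100 a.u. on every array. Of 300 member log2 ratios recomputed, none that was called changed sign. Over all genes, the share of MB over OM calls that were higher was 64.1% as reported, 46.6% with 75th percentile scaling, 52.3% with quantile normalization and 38.9% with spike-in scaling; for the last the median of all genes moved by -0.28 on the log2 scale, by -0.14 for MB over NM and by -0.14 for NM over OM. No scaling moved it by 0.16 for MB over NM and by -0.19 for NM over OM. Without a replicate array, differences between cultures could not be measured.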

Other observations

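The START domain of STARD4 is shared by other lipid carriers. None of 10 measured relatives was called in MB over OM, where 10.3% of all genes were 2-fold or more apart. The median log2 ratio of the relatives was -0.15. With quantile normalization or spike-in scaling 1 of them was called lower. STARD7, a carrier of phosphatidylcholine, had the highest ratio at 1.48-fold, followed by STARD3, the late endosomal cholesterol carrier, at 1.23-fold. STARD10, a phospholipid carrier, gave 1102 a.u. in OM, 632 a.u. in MB and 2115 a.u. in NM, 1.74-fold below OM and 3.35-fold below NM in MB. STARD13 was 1.63-fold below OM in MB and at the 2-fold limit against NM.

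Of 4 enzymes that make or clear oxysterols, the hydroxylated sterols that bind INSIG proteins and LXR, 2 were measured. CYP27A1, the sterol 27-hydroxylase, gave 5380 a.u. in OM, 3703 a.u. in MB and 11036 a.u. in NM, 1.45-fold below OM and 2.98-fold below NM in MB. CYP7B1, the oxysterol 7-alpha-hydroxylase, gave 107 a.u. in OM, 234 a.u. in MB and 91.4 a.u. in NM, 2.18-fold above OM in MB, which dropped under 2-fold with 75th percentile and spike-in scaling and with both other background treatments.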
